A study of Mus musculus with 4 samples.

Results

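Receptor genes for oxytocin, vasopressin and other peptides known from the hypothalamus were followed in RNA bound to tagged ribosomes and in whole prefrontal cortex of Crh-IRES-Cre mice. They were Oxtr, Avpr1a, Hcrtr1, Hcrtr2, Galr1, Mc4r, Npr3 and Ntsr1, chosen by symbol, and make 8 of the 24091 genes with a symbol in the count tables. The 3 immunopurified (IP) libraries were prepared by translating ribosome affinity purification (TRAP), in which polysomes carrying EGFP are captured from homogenised tissue with anti-EGFP antibodies. The 1 Input library came from the same tissue of the same line. Every library was from adult, untreated males, pooled at 5 per library, and all carried Cre at the Crh locus, the gene of corticotropin-releasing hormone. How the EGFP tag was brought into the cells, and the exact age, were not given in the labels. Nothing in the labels ties libraries to particular animals, so a p-value here reflects how much these libraries vary, part of which may be technical.

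Oxytocin, vasopressin, the orexins, galanin, melanocortins and neurotensin act on G-protein-coupled receptors, and are made largely by cells of the hypothalamus and other subcortical regions. In the cortex a cell's response to these peptides therefore depends on which receptor it makes. Oxtr is known from a subset of cortical interneurons, many of which make somatostatin, and Ntsr1 from corticothalamic neurons of the sixth layer. Npr3 differs in kind, since it encodes the natriuretic peptide receptor that lacks a guanylyl cyclase domain and clears its ligands.

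Total counts were 10029101 to 23544259 in the IP libraries and 14471335 in the Input, with 13949 to 14684 genes detected in IP and 17133 in the Input. Levels are given in CPM, the count of a gene set against the effective size of its library (total times TMM factor). A single count was worth 0.0436, 0.107 and 0.0862 CPM in IP 1, 2 and 3, against 0.0600 CPM in the Input. A gene with 0 counts could therefore be as high as 0.131, 0.321 and 0.259 CPM in the IP libraries and 0.180 CPM in the Input, a limit of 3 counts that covers counting error only. Crh itself, as the check of the line, was at 501, 174 and 193 CPM in IP 1, 2 and 3, against 1.32 CPM in the Input (log2 fold 7.77 ± 0.87 SE, adjusted p = 9.43e-05, edgeR quasi-likelihood test). Among interneuron markers, Vip was at 2253 to 3803 CPM in IP and 33.8 CPM in the Input, and Gad1 at 666 to 980 CPM in IP and 94.4 CPM in the Input, with Gad2 also above the Input in each IP library. Levels of other interneuron markers were 2.22 to 21.9 CPM in IP and 20.3 CPM in the Input for Pvalb, 26.2 to 39.6 CPM in IP and 126 CPM in the Input for Lamp5, and 9.40 to 14.1 CPM in IP and 8.16 CPM in the Input for Ndnf. These genes do not stand for their classes. Of 7 Lamp5-class markers, 4 lay above the Input in each IP library and 2 below (sums 1009, 707 and 669 CPM in IP, 369 CPM in the Input). Of 6 Pvalb-class markers, 2 lay above and 0 below (sums 606, 668 and 736 CPM in IP, 391 CPM in the Input). Among all genes tested, 19.7% lay above and 24.1% below. The excitatory marker Slc17a7 was at 201 to 403 CPM in IP and 633 CPM in the Input, the microglial marker P2ry12 at 1.55 to 2.46 CPM in IP and 21.2 CPM in the Input, and the endothelial markers Flt1 and Cldn5 at 16.0 to 94.9 and 1.82 to 5.86 CPM in IP and 3.06 and 0.540 CPM in the Input.

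The make-up of the 8 receptors differed from library to library, among the IP libraries as well as between them and the Input. In IP 1 the largest part of their summed CPM was Hcrtr2, at 55.6%. In IP 2 and IP 3 it was Oxtr, at 61.1% and 82.4%. In the Input it was Npr3, at 45.4%. Oxtr and Ntsr1 made up 22.4% and 16.1% in IP 1, close to their 23.1% and 18.3% in the Input. The summed level was 13.3, 21.7 and 50.4 CPM in IP 1, 2 and 3, against 28.3 CPM in the Input, so the IP libraries lay on both sides of the Input. At least 1 count was found for 5, 6 and 5 of the 8 genes in IP 1, 2 and 3 and for 7 in the Input. In bulk RNA such as this, fewer cells of a type and less RNA per cell cannot be told apart.

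**Figure D1:**
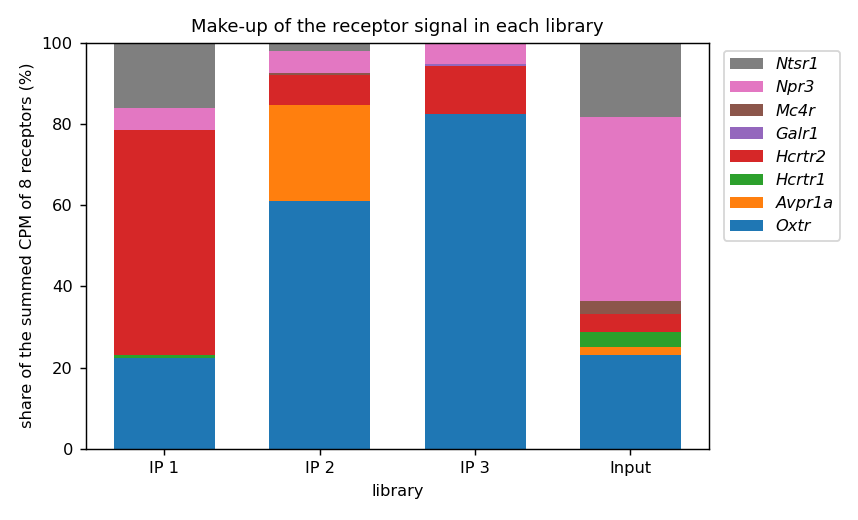
Share of the summed CPM of the 8 receptor genes taken by each gene (y axis, percent) in each of the 3 IP libraries and the Input (x axis); bars are single libraries. Oxtr and Hcrtr2 together fill most of each IP bar, whereas Npr3 at 45.4% is the largest part of the Input bar.

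In the edgeR quasi-likelihood test across all genes, 0 of the 7 receptors that could be tested passed an adjusted p of 0.05 (0 higher and 0 lower in IP), against 0.465% of the 14628 genes tested, with 0.417% higher in IP and 0.0479% lower. The adjusted p of each of the 7 was 0.99999. None had an unadjusted p under 0.05, against 4.44% of all genes tested, and limma-voom and DESeq2 also called 0, though DESeq2 gave an adjusted p for Oxtr alone. Galr1 did not reach the minimum of counts for the test. With IP and Input compared library by library, 4 of the 7 were lower than the Input in each IP library (Hcrtr1, Mc4r, Npr3 and Ntsr1), against 24.1% of all genes tested, and 1 lay above it in all 3 (Hcrtr2), against 19.7%. The median log2 fold of the 7 was -2.47, beside 0.083 for all genes tested. Hcrtr1 and Mc4r passed the count minimum through the Input alone and Avpr1a through IP 2 alone, so these counts describe the genes and do not test them. The 8 receptors together had 1092 counts in IP and 471 in the Input, a depth-corrected ratio of 0.881 (95% exact counting interval 0.790 to 0.983). That interval holds no spread between libraries, and the ratio weights the IP libraries by depth, so IP 1 counts most. The ratio was 1.33 without IP 1 and 0.556 without IP 3.

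**Figure D2:**
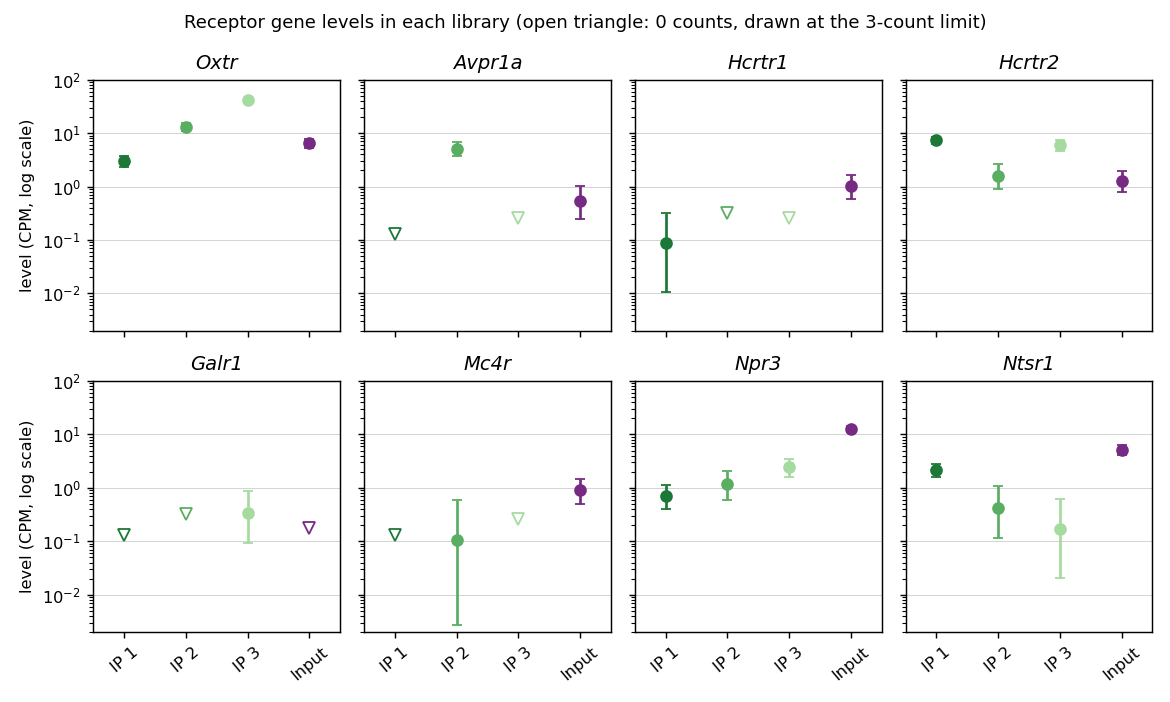
Level in CPM (y axis, log scale) of each receptor gene in IP 1, 2 and 3 and in the Input (x axis); filled points are single libraries with 95% exact Poisson counting intervals, and open triangles are libraries with 0 counts, drawn at the limit of 3 counts. Hcrtr2 is above the Input in every IP library, Npr3 and Ntsr1 are below it in every IP library, and Oxtr runs from 2.96 to 41.6 CPM across the IP libraries.

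Oxtr encodes the oxytocin receptor (Entrez 18430, chromosome 6, 112473683 to 112489943 in GRCm38, minus strand, protein coding). It was at 2.96, 13.3 and 41.6 CPM in IP 1, 2 and 3, from 68, 124 and 482 counts, against 6.54 CPM in the Input (109 counts). IP 2 and IP 3 lay above the Input and IP 1 below it, so the groups overlapped. Its mean was 19.3 ± 20.0 CPM in IP (SD, n = 3), and the log2 fold of IP over Input was 1.56 ± 1.37 (SE). Pooled over the IP libraries, the ratio of counts to the Input was 2.35 (95% counting interval 1.92 to 2.90), an interval that holds no spread between libraries. Without IP 3 the ratio was 0.909, and without IP 1 it was 4.42. The highest IP library exceeded the lowest 14.0-fold. Of 4042 tested genes with a mean in IP between 9.63 and 38.5 CPM, 5.32% had a gap between IP libraries as large, and the median gap was 2.78-fold.

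Several marker levels also differed between the IP libraries, not all in the order of Oxtr, and their part in its spread was not tested. Crhbp, the CRH-binding protein, which is known from Sst interneurons, was at 5.58, 20.0 and 20.4 CPM in IP 1, 2 and 3, against 11.1 CPM in the Input. Sst itself was at 708, 581 and 746 CPM in the IP libraries and 332 CPM in the Input. The summed level of 8 Sst-class markers was 1324, 1267 and 1527 CPM in IP 1, 2 and 3 and 581 CPM in the Input, with Chodl at 0 in IP 3. Of the 8, 5 were highest in IP 3, where Oxtr was highest, and 3 in IP 2 (Chodl, Nos1 and Reln). Lowest in IP 1, where Oxtr was lowest, were 4 of the 8. Nos1 (75.3, 84.5 and 67.4 CPM) was lowest in IP 3, as was Chodl, and Grin3a (136, 124 and 150 CPM) was lowest in IP 2. The summed level of 6 markers of meningeal fibroblasts was 7.41, 33.0 and 80.4 CPM in IP 1, 2 and 3, against 76.8 CPM in the Input. In IP 3 that sum came mostly from Col1a2, a collagen gene at 58.4 CPM, and Lum was at 0 counts in all 3 IP libraries. Igf2 (4.49, 19.3 and 20.3 CPM in IP 1, 2 and 3) ran in the order of Oxtr, as did Col1a2. Dcn (1.40, 7.59 and 0.949 CPM), Col1a1 (1.22, 4.06 and 0.690 CPM) and Slc6a13 (0.305, 1.93 and 0.0862 CPM) were instead highest in IP 2 and lowest in IP 3.

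The windows at the transcription starts of Oxtr and Npr3 are shown because these were the most abundant of the receptors in IP and in the Input. Each covers 250 bases before and 50 after the start that RefSeq annotates on GRCm38.p6, read in the direction of the gene, with CpG dinucleotides in capitals. The Oxtr window is chr6:112489776-112490075 and the Npr3 window chr15:11907322-11907621, both on the minus strand. RefSeq and GENCODE place the starts differently: the RefSeq start of Oxtr lies inside the GENCODE span given above, and the Npr3 window lies wholly upstream of the GENCODE span given further on.
Oxtr: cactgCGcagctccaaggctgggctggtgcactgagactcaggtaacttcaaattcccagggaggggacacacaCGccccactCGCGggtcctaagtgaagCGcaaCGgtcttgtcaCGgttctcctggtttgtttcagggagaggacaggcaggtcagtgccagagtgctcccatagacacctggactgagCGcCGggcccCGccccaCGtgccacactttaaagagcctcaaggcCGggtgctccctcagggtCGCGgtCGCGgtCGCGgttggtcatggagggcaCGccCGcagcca
Npr3: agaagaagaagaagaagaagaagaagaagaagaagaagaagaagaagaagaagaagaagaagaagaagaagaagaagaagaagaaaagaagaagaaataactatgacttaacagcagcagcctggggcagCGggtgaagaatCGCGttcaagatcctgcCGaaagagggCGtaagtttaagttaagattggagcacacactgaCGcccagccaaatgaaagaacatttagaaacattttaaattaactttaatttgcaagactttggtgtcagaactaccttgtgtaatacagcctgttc
The Oxtr window held 20 CpG and 63.7% G or C, and the Npr3 window 6 CpG and 39.0% G or C. Over 32851 windows of the same length the medians were 7 CpG and 52.7% G or C, and 26.5% of the windows held at least 20 CpG. The Npr3 window opens with a stretch of 27 unbroken AAG repeats. No regulatory readout was measured in these libraries, so the windows give context for the genes only.

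Avpr1a encodes the V1a vasopressin receptor, the nearest relative of Oxtr among the genes followed (Entrez 54140, chromosome 10, 122448499 to 122453452). It was at 5.13 CPM in IP 2 (48 counts), at 0 counts in IP 1 and IP 3, and at 0.540 CPM in the Input (9 counts). The level in IP 2 (counting interval 3.79 to 6.81 CPM) was 39.3 times the limit of 3 counts in IP 1 and 19.8 times that in IP 3. The log2 fold of IP over Input was 1.64 ± 3.42 (SE), and the pooled ratio of 2.03 had a counting interval of 0.983 to 4.70. All IP counts were thus from 1 library, and without IP 2 the IP group held 0 counts. IP 2 also had the highest summed level of 7 endothelial markers, which were at 132, 481 and 196 CPM in IP 1, 2 and 3, against 33.5 CPM in the Input. All 7 lay above the Input in every IP library, against 19.7% of all genes tested, and none was at 0. Of the 7, edgeR called 0 higher and 0 lower in IP. In IP 2 the sum came mostly from Slc2a1, a glucose transporter at 307 CPM, and 5 of the 7 were highest there, whereas Cldn5 (5.67, 1.82 and 5.86 CPM in IP 1, 2 and 3) and Pecam1 (6.06, 4.92 and 30.9 CPM) were lowest there. The 6 mural cell markers stood at 134, 353 and 189 CPM in the IP libraries and 73.5 CPM in the Input, with Kcnj8 at 0 in IP 2 and IP 3. Rgs5 gave 293 CPM of the sum in IP 2, where 3 of the 6 were highest, while Vtn was lowest there and Acta2 was highest in IP 3. The part of these cells in the Avpr1a counts was not tested.

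The orexin receptors stood on opposite sides of the Input. Hcrtr2, the receptor that binds orexin A and orexin B alike (Entrez 387285, chromosome 9, 76225880 to 76323856), was at 7.37, 1.60 and 5.95 CPM in IP 1, 2 and 3, from 169, 15 and 69 counts, against 1.26 CPM in the Input (21 counts). Every IP library was above the Input, IP 2 only slightly, and the counting intervals of IP 2 (0.898 to 2.65 CPM) and of the Input (0.780 to 1.93 CPM) overlapped. The mean in IP was 4.97 ± 3.003 CPM (SD, n = 3), with a log2 fold of 1.98 ± 2.09 (SE). The pooled ratio was 4.58 (counting interval 2.93 to 7.52), and it was 3.18 without IP 1 and 5.47 without IP 2. A 4.59-fold gap between the highest and the lowest IP library, as seen here, was equalled or exceeded by 56.4% of the 2732 tested genes at like levels.

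Crh ran in the same order as Hcrtr2 over the IP libraries, highest in IP 1 and lowest in IP 2, at 501, 174 and 193 CPM. Of the 8 Vip-class markers only Vip itself ran in that order, with nearly equal levels in IP 2 and IP 3 (2253 and 2254 CPM). Of the others, 4 were lowest in IP 3 and 3 were highest there. With 3 libraries such an order is a description of these libraries only.

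Hcrtr1, the receptor with a preference for orexin A (Entrez 230777, chromosome 4, 130130217 to 130139359), had 2, 0 and 0 counts in IP 1, 2 and 3 and 17 counts in the Input. Its level was 0.0872 CPM in IP 1, at most 0.321 and 0.259 CPM in IP 2 and IP 3 by the limit of 3 counts, and 1.02 CPM in the Input. The pooled ratio of IP to Input was 0.0447, with a counting interval of 0.00501 to 0.188. The fitted log2 fold of -4.56 ± 3.34 (SE) depends on the prior count at such levels. The difference between the folds of the 2 orexin receptors was not tested.

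**Figure D3:**
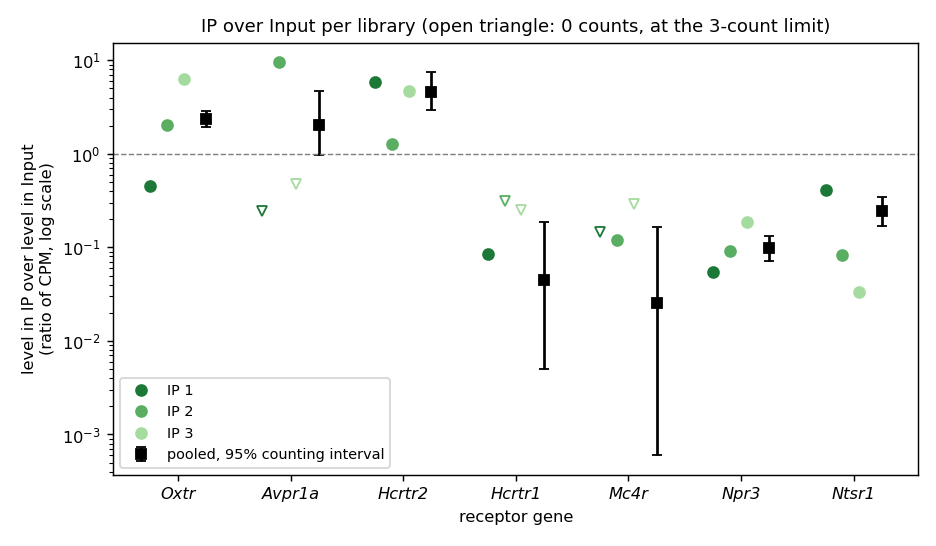
Ratio of the level in each IP library to the level in the Input (y axis, log scale) for the 7 receptors with counts in the Input; circles are IP 1, 2 and 3, open triangles are libraries with 0 counts at the limit of 3 counts, and squares are the pooled ratio with its 95% counting interval. All Hcrtr2 circles lie above the dashed line at 1 and all Npr3 and Ntsr1 circles below it, and the Oxtr and Avpr1a libraries fall on both sides.

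Mc4r, the melanocortin receptor best known for the control of appetite (Entrez 17202, chromosome 18, 66857704 to 66860506), had 0, 1 and 0 counts in IP 1, 2 and 3 and 15 counts in the Input. That is 0.107 CPM in IP 2 and 0.900 CPM in the Input. The pooled ratio was 0.0253 (counting interval 0.000602 to 0.165), and the log2 fold was -4.58 ± 3.49 (SE). Its counts in IP were at or under the limit in each library. Galr1, a galanin receptor that couples to inhibitory G proteins (Entrez 14427, chromosome 18, 82392380 to 82406777), had 0, 0 and 4 counts in IP 1, 2 and 3 and 0 counts in the Input. It was at 0.345 CPM in IP 3 (counting interval 0.0940 to 0.883 CPM), and the Input allowed up to 0.180 CPM. A difference between IP and Input was not detectable for Galr1 at this depth.

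Npr3, the clearance receptor for natriuretic peptides (Entrez 18162, chromosome 15, 11839896 to 11907287, minus strand), was the most abundant of the 8 in the Input. Its level was 0.698, 1.18 and 2.41 CPM in IP 1, 2 and 3 (16, 11 and 28 counts), against 12.8 CPM in the Input (214 counts). All 3 IP libraries lay below the Input, and their counting intervals, which reached at most 3.49 CPM, did not meet that of the Input (11.2 to 14.7 CPM). Such intervals hold no spread between libraries, and there was 1 Input library only. The mean in IP was 1.43 ± 0.89 CPM (SD, n = 3). The log2 fold was -3.16 ± 1.63 (SE), with an unadjusted p of 0.0667 in edgeR's quasi-likelihood test. The pooled ratio was 0.0976 (counting interval 0.0712 to 0.132), and it was 0.145 without IP 1 and 0.0651 without IP 3. An exon of the gene model Gm5144 covers 3.77% of the exon bases of Npr3, and whether its reads were told apart is unknown.

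Ntsr1, the high-affinity neurotensin receptor (Entrez 18216, chromosome 2, 180499976 to 180544980), was at 2.14, 0.428 and 0.172 CPM in IP 1, 2 and 3, from 49, 4 and 2 counts, against 5.16 CPM in the Input (86 counts). All 3 IP libraries were below the Input, with 49 of the 55 IP counts in IP 1. The log2 fold was -2.47 ± 2.18 (SE), and the pooled ratio of 0.243 (counting interval 0.170 to 0.345) was 0.0555 without IP 1. Other markers of neurons of the sixth layer were spread around the Input. Foxp2, a transcription factor of these neurons, was at 10.3, 12.8 and 30.1 CPM in the IP libraries and 30.7 CPM in the Input. Tle4, a corepressor gene of the same neurons, was at 30.0, 73.4 and 56.3 CPM in the IP libraries and 75.7 CPM in the Input. The summed level of 8 layer markers was 295, 347 and 232 CPM in IP 1, 2 and 3, against 306 CPM in the Input, with Nxph4 at 0 in IP 2. Of the 7 tested, 2 were higher than the Input in each IP library and 3 lower in each, against 19.7% and 24.1% of all genes tested. Members went both ways over the IP libraries. Fezf2 (64.9, 28.2 and 22.0 CPM in IP 1, 2 and 3) and Cplx3 (19.5, 4.28 and 9.66 CPM) were highest in IP 1, where Ntsr1 was highest. Foxp2 and Tle4 were lowest in IP 1, and Syt6, the largest part of the sum in each IP library, was highest in IP 2 at 159 CPM. The part of these neurons in the Ntsr1 values was not tested.

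Per kilobase of exon, by merged exons of GENCODE release M21, Oxtr had the highest mean level of the 8 in IP, at 4.02 ± 4.17 CPM per kb (SD, n = 3). Hcrtr2 followed at 1.09 ± 0.66, Avpr1a at 0.641 ± 1.11, Ntsr1 at 0.233 ± 0.273 and Npr3 at 0.197 ± 0.122 CPM per kb. Galr1, Mc4r and Hcrtr1 averaged 0.0385, 0.0127 and 0.0111 CPM per kb with 0 counts taken as 0, and 0.0889, 0.059 and 0.0852 CPM per kb with 0 counts set at the limit of 3 counts. The ranges of neighbours in this order overlapped at every step. In the Input the levels per kb of Npr3 (1.77), Oxtr (1.36) and Ntsr1 (1.32) were close together, with counting intervals that overlapped from one to the next. Hcrtr1 (0.391), Mc4r (0.321), Hcrtr2 (0.276) and Avpr1a (0.202 CPM per kb) made a lower set whose neighbours overlapped as well, and Galr1 had no counts. Hcrtr2 thus ranked 2 in IP and 6 in the Input, and Npr3 ranked 5 in IP and 1 in the Input. The annotation used by the authors for counting was not given in the sources used here, so lengths are approximate.

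The genes of the ligands gave few or no counts. Of 13 ligand genes with values, 3 could be tested (median log2 fold -0.81), and 8 had 0 counts in every library, among them Oxt, Avp, Hcrt, Gal and Nts, which encode oxytocin, vasopressin, the orexins, galanin and neurotensin. Enough counts for the test were found for Nppc, which encodes C-type natriuretic peptide, Pomc, the precursor of the melanocortins, and Spx, whose peptide spexin acts on galanin receptors. Nppc was at 2.35, 0.214 and 0.862 CPM in IP 1, 2 and 3, against 2.16 CPM in the Input. Spx had 3, 23 and 0 counts in the IP libraries and 25 counts in the Input, and Pomc at 0.480, 0 and 0.862 CPM in the IP libraries and 0.240 CPM in the Input. Of these ligands edgeR and limma-voom called 0, and in edgeR 0 had an unadjusted p under 0.05. DESeq2 gave no adjusted p for Npr3 or Hcrtr2, which had more counts, so it could not call these ligands. Of the untested ligands, Agrp, the melanocortin antagonist, had 9, 5 and 0 counts in the IP libraries and 7 in the Input. Nppa, the gene of atrial natriuretic peptide, had 6, 0 and 0 counts in the IP libraries and 10 in the Input, but 61.5% of its exon sequence overlaps another gene.

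**Figure D4:**
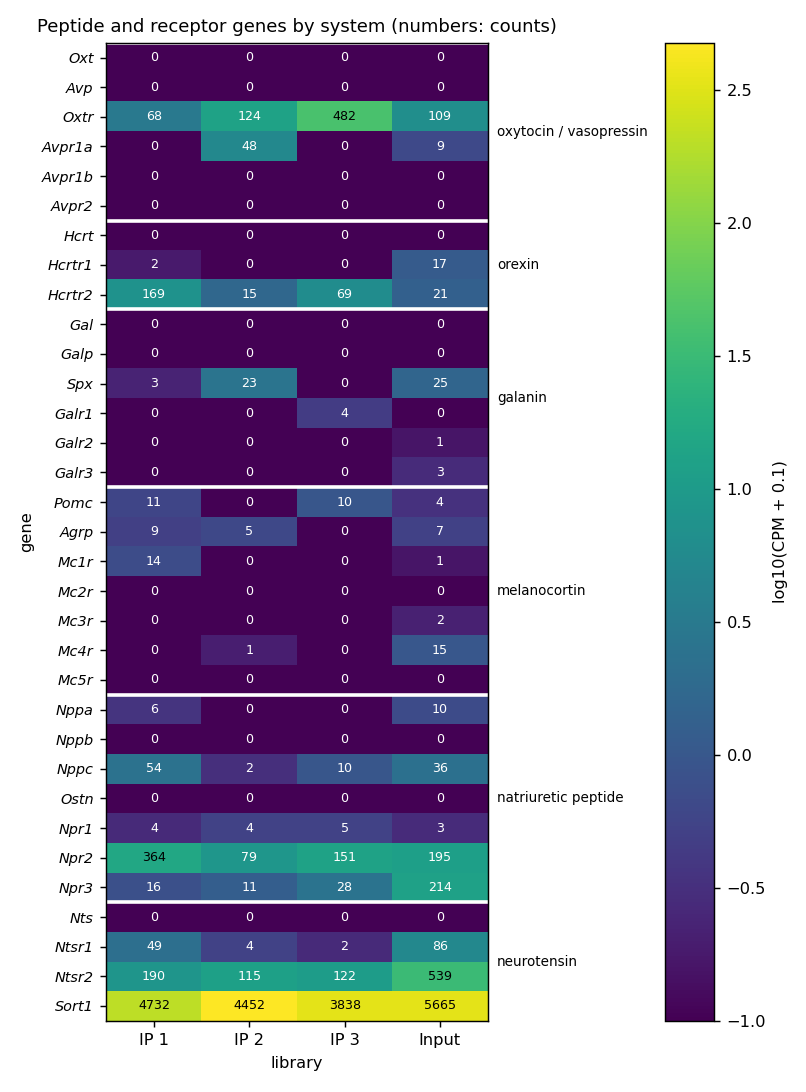
Peptide and receptor genes of 6 systems (rows) in IP 1, 2 and 3 and the Input (columns); colour is log10(CPM + 0.1) and the printed numbers are raw counts. Oxt, Avp, Hcrt, Gal and Nts have 0 counts in all 4 libraries, and Sort1, at 3838 to 4732 counts in the IP libraries and 5665 in the Input, has the most counts of any gene shown.

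Among the 12 other receptors of the same families, 3 could be tested (median log2 fold -0.0090). In each IP library 0 of the 3 were higher than the Input and 1 was lower, against 19.7% and 24.1% of all genes tested. Of these, edgeR, DESeq2 and limma-voom each called 0, and 0 reached an unadjusted p of 0.05 in edgeR. Avpr1b, Avpr2, Mc2r and Mc5r had 0 counts in every library, and Galr3 had 0 counts in IP and 3 in the Input. Ntsr2, the low-affinity neurotensin receptor, which is known from astrocytes, was at 8.28, 12.3 and 10.5 CPM in IP 1, 2 and 3, against 32.3 CPM in the Input (log2 fold -1.64 ± 0.98 SE). Of 8 astrocyte markers 7 were also lower than the Input in each IP library (median log2 fold -1.14), against 24.1% of all genes tested, and their part in the Ntsr2 values was not tested. Among them Aldoc was at 148 to 208 CPM in IP and 303 CPM in the Input, and Aqp4 at 6.38 to 57.0 CPM in IP and 57.4 CPM in the Input. The exception, Slc1a2, was the largest part of the summed level, at 1380, 2457 and 1546 CPM in IP 1, 2 and 3 and 2123 CPM in the Input. The sum of the 8 was 1651, 2833 and 1808 CPM in IP 1, 2 and 3 and 2673 CPM in the Input, so IP 2 lay above the Input. Npr2, the guanylyl cyclase receptor for C-type natriuretic peptide, was at 15.9, 8.45 and 13.0 CPM in IP and 11.7 CPM in the Input, a log2 fold of 0.091 ± 1.19 (SE). Npr1, the guanylyl cyclase receptor for atrial natriuretic peptide, had only 4, 4 and 5 counts in IP and 3 in the Input. Whether Npr3 and Npr2 differed in their fold was not tested. Sort1, the sorting receptor sortilin that also binds neurotensin, was at 206, 476 and 331 CPM in IP and 340 CPM in the Input.

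Of 12 accessory proteins and peptidases 10 were tested and 0 passed, with 0 at an unadjusted p under 0.05 and a median log2 fold of 0.24. Of the 10, 1 was higher than the Input in each IP library and 2 lower in each, against 19.7% and 24.1% of all genes tested. The most abundant were Atrn, the attractin gene of the agouti pathway, at 422 ± 155 CPM in IP (SD, n = 3) and 340 CPM in the Input, and Lnpep, the aminopeptidase that cleaves oxytocin and vasopressin, at 209 ± 39.7 CPM in IP and 153 CPM in the Input. Lnpep lay above the Input in all 3 IP libraries (log2 fold 0.45 ± 0.46 SE). The ubiquitin ligase gene Mgrn1 was at 148 ± 13.9 CPM in IP and 132 CPM in the Input, and Ide, the insulin-degrading enzyme, at 77.8 ± 21.0 CPM in IP and 94.4 CPM in the Input. Of 23 tested genes of G proteins and their effectors, 0 passed, with 0 at an unadjusted p under 0.05, a median log2 fold of 0.069, 10 higher than the Input in each IP library and 3 lower in each, against 19.7% and 24.1% of all genes tested. Gnaq, the G protein through which Oxtr, Avpr1a and the orexin receptors signal to phospholipase C, was at 421 ± 59.6 CPM in IP and 479 CPM in the Input. Gnas was at 2481 ± 390 CPM in IP and 1787 CPM in the Input, Gnao1 at 2005 ± 141 CPM in IP and 1813 CPM in the Input, and the IP3 receptor gene Itpr1 at 863 ± 219 CPM in IP and 846 CPM in the Input. Gnai1 was at 572 ± 101 CPM in IP and 396 CPM in the Input. Of the exon sequence of Gnas, 23.7% overlaps another gene.

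Among 19 receptors for other hypothalamic peptides, 9 were tested and 0 passed, with 0 at an unadjusted p under 0.05 and a median log2 fold of 0.54. Of the 9, 2 were higher than the Input in each IP library and 1 lower in each, against 19.7% and 24.1% of all genes tested. Rxfp1, a relaxin receptor, was at 16.3, 3.64 and 24.3 CPM in IP 1, 2 and 3, against 10.1 CPM in the Input. Mchr1, the receptor for melanin-concentrating hormone, was at 8.81, 13.8 and 5.78 CPM in IP and 12.1 CPM in the Input. Prokr2, a prokineticin receptor, was at 22.1, 4.06 and 0.431 CPM in IP and 2.16 CPM in the Input, with 507 of its counts in IP 1. Kiss1r, the kisspeptin receptor, was at 3.18, 3.53 and 8.71 CPM in IP and 2.52 CPM in the Input, above it in every IP library. Trhr, the receptor for thyrotropin-releasing hormone, had 27, 2 and 0 counts in IP and 73 in the Input, below it in every IP library. Over the ligand, receptor, accessory and G-protein lists together DESeq2 and limma-voom also called 0, though DESeq2 gave no adjusted p at low counts.

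Genes with a profile nearest to each receptor over the 4 libraries were sought by the Euclidean distance of log2(CPM + 0.5), centred on each gene's mean. For Oxtr these were Efcc1 (distance 0.330) and Tmem120a (0.353), and 9 genes lay within 0.5. For Hcrtr2 they were Manba (0.0365) and Pcdha5 (0.0829), with 22 genes within 0.5, for Npr3 Malt1 (0.213) and Morc2b (0.328), with 6, and for Ntsr1 Hadh (0.214) and Ccdc134 (0.217), with 32. Nearest to Avpr1a were Trim30d (distance 0) and Acad11 (0.166), with 33 genes within 0.5. Hcrtr1 and Mc4r had 345 and 315 genes within that distance, the nearest being Hyal1 and Fam81a for Hcrtr1 and Ctf1 and Fam228a for Mc4r, so their few counts do not single out any gene. A likeness over 4 libraries is a description of these libraries.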

How the data were processed

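Each deposited table holds 1 library's raw read count for every gene, beside its Entrez identifier and symbol, per the file headers. STAR 2.0.0e, HTSeq (no version) and the build mm10 are named in the submitters' processing notes. The table names also hold the word subread, so the counter is not settled. Annotation, strand and the handling of multiply mapped reads are not given in the sources used here. The 9 genes without a symbol, at most 0.0221% of a library, were left out. Analysis was in R 4.3.3 with edgeR 4.0.16: filterByExpr (minimum count 10) retained 14628 genes, and libraries were scaled by TMM. IP was tested against Input by the two-sided edgeR quasi-likelihood F test, Benjamini-Hochberg adjusted over all genes kept, threshold 0.05. The lone Input was assumed to vary like the IP libraries (2 residual degrees of freedom, prior 17.0, biological coefficient of variation 0.787). SEs are the log2 fold over the square root of F. Pooled ratios use effective library sizes, with exact 95% binomial intervals. No 2 libraries were copies (chi-square per degree of freedom at least 88.7). Alternatives used DESeq2 1.42.0 and limma 3.58.1 (voom), other scalings, filters, a robust prior, a stricter threshold and each IP library left out. The members, lists and tests were chosen with earlier results of these data known. Genes named from the lists were every called gene and the 4 most abundant in IP and in the Input, besides fixed markers, and the 2 nearest profiles of each receptor. Exon overlaps are from GENCODE release M21 on GRCm38, and promoter windows from RefSeq. Asip was not analysed here.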

Additional observations from a re-analysis of the deposited data

How the results depend on the processing

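The stricter threshold and the robust prior are among 12 alternatives and leave each log2 fold as it was. An adjusted p under the threshold was found for 0 receptors, though DESeq2 gave an adjusted p for Oxtr alone. Of 78 receptor log2 folds under the 12 alternatives, 76 kept their direction. The exceptions were both of Avpr1a, whose log2 fold was -2.07 with limma-voom and ran from -6.22 (without IP 2, with the IP group at 0 counts, so no bound) to 2.22 without 1 IP library, and the cause of the change with limma-voom was not tested. The log2 fold of Oxtr ran from 0.31 (without IP 3) to 2.05 (without IP 1). With upper-quartile factors, library totals and limma-voom 1 receptor, Npr3, had an unadjusted p under 0.05 (lowest 0.0252; lowest adjusted p 0.738). Genes called among all tested were 108 with no low-count filter, 181 with DESeq2, 39 at an adjusted p under 0.01, and 90 to 209 with 1 IP library left out (209 without IP 1, 109 without IP 2), against 68 as reported. Higher and lower calls numbered 61 and 7 as reported, 51 and 15 with upper-quartile factors, 50 and 15 with library totals and 36 and 14 with limma-voom, and the median log2 fold of all genes was -0.13 with upper-quartile factors and -0.19 with library totals, against 0.083 as reported. A minimum mean of 5 CPM left only Oxtr of the receptors. No paired analysis was possible because there was only 1 Input library. With 1 to 48 IP counts for Avpr1a, Hcrtr1, Galr1 and Mc4r, depth limits what can be seen.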

Other observations

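Chosen after their values were seen, a few related genes had counts that lay far from the Input or in 1 library. Glp1r, the receptor for glucagon-like peptide 1, had 85, 37 and 69 counts in IP 1, 2 and 3 and 3 counts in the Input, with an edgeR log2 fold of 4.59 and an unadjusted p of 0.0941. Mrap2, an accessory protein of melanocortin receptors, had 277, 6 and 2 counts in the IP libraries and 49 in the Input. Mc1r, a melanocortin receptor, had 14, 0 and 0 counts in the IP libraries and 1 in the Input, and Rxfp3, a receptor for relaxin-3, had 2, 2 and 41 counts in the IP libraries and 27 in the Input.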
